A study of Mus musculus with 18 samples.

Results

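The messenger RNAs of the proteins of the cytosolic ribosome were followed in RNA of axoplasm, the cytoplasm of axons, from dorsal roots and sciatic nerves of mice. Members were the genes named Rpl or Rps with a digit, and Rplp0, Rplp1, Rplp2, Rpsa and Fau. Rps6k kinase genes, names with -ps, Rpl22l1, Rpl7l1, Rps19bp1 and Rpl39l were left out. This gave 85 genes, 48 of the large and 37 of the small subunit, of 12697 genes with a transcript in the tables of both tissues. All 85 had transcripts in both tables and passed the filter on low counts in every comparison. They were chosen by name, with earlier results of these data known.

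The study, titled as a profile of Kif5A RNA targets in sensory axons, sequenced 18 libraries in 6 groups of 3. Axoplasm of C57B6 mice, from dorsal root or sciatic nerve of the same animals with 5 animals pooled for each repeat, was precipitated with a rabbit antibody to Kif5A, the heavy chain of a motor protein that moves cargo along microtubules toward axon ends. Precipitates with rabbit IgG, an isotype control with no chosen target, and libraries of input axoplasm were sequenced beside them. Each tissue thus has a Kif5A group, an IgG group and an input group. The labels give no genotype change, treatment or age, and axoplasm pressed from ground tissue can hold RNA of glia and other cells of the nerve. In such bulk samples fewer cells of a type and less RNA per cell cannot be told apart.

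The cytosolic ribosome has a small subunit, which reads the messenger RNA, and a large subunit, which joins amino acids. Their proteins are made in near equal numbers from short and abundant mRNAs, most of which begin with a run of pyrimidines, the 5' terminal oligopyrimidine (TOP) tract, through which their translation is set together by growth signals. Ribosomal protein mRNAs are known as one of the classes carried into axons. They also give rise to many processed pseudogenes, so that reads can match more than 1 place in the genome.

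These are small genes, and the ratio of precipitate to input followed their length, so the coding sequences of 2 of the shortest are shown, from GENCODE M21 transcripts on GRCm38. The start and stop codons are in capitals. Rpl39 lies on chromosome X from 37082520 to 37085402 on the minus strand and has 156 coding bases. Rps28 lies on chromosome 17 from 33819027 to 33824562 on the minus strand and has 210.
Rpl39: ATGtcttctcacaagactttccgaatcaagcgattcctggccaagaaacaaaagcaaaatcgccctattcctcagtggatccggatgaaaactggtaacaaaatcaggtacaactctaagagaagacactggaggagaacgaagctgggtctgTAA
Rps28: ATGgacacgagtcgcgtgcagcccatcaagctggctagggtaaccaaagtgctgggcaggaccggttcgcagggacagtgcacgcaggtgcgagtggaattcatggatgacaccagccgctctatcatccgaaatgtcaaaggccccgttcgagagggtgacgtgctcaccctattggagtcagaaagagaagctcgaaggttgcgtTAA

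RefSeq promoter windows (GRCm38.p6) were found for 62 of the 85 genes. A run of at least 8 C or T (any mix of the 2 letters) on the gene's strand within 50 bases either side of the start was present in 51 of them, 82.3%, and in 39.3% of the 27025 genes of the promoter table. On the opposite strand the same run was present in 15, 24.2%, against 41.1% of all genes. A run touching the 5 bases either side of the start was present in 24 of the 62, 38.7%, against 11.4% of all genes. Windows of 15 bases either side of the start are shown for the 3 genes with the lowest and the 3 with the highest ratio of Kif5A precipitate to input in dorsal root, out of 20 genes whose run touches those 5 bases and lies within the window. The run is in capitals. The median log2 ratio of Kif5A precipitate to input in dorsal root was -1.07 in the 51 genes with a run within 50 bases. It was -1.13 in the 11 without, and a link between run and ratio was not tested.
Rps26 (chr10:128626492-128626521, minus strand): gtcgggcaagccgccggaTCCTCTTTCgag
Rps24 (chr14:24490663-24490692, plus strand): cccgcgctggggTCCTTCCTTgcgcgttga
Rps27l (chr9:66946071-66946100, plus strand): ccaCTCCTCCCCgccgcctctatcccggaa
Rpl18 (chr7:45718056-45718085, plus strand): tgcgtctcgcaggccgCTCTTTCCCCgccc
Rps10 (chr17:27635230-27635259, minus strand): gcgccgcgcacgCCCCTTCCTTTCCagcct
Rps6 (chr4:86857353-86857382, minus strand): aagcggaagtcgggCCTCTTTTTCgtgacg

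Libraries held between 11584418 and 22580824 counts on named transcripts. Sensory neuron markers were thinly covered, with 2 of 8 in both tables and summed levels of 9.47 to 49.5 CPM (counts scaled by library size), and Isl1 had a count of 0 in every library of the IgG precipitates of both tissues and of the Kif5A precipitate of sciatic nerve. The 6 axonal cytoskeleton genes were all present, at 321 to 487 CPM in dorsal root and 101 to 181 CPM in sciatic nerve. Glial and connective tissue markers were far higher: 7 of 8 myelinating Schwann cell markers summed to 4029 to 25930 CPM and the 6 fibroblast markers to 4072 to 21090 CPM. Replicate 3 of both precipitates of sciatic nerve stood apart from replicates 1 and 2. The myelinating Schwann cell markers summed to 21520 CPM in replicate 3 of its IgG group, against 4870 and 7637 in replicates 1 and 2. In the Kif5A group of sciatic nerve they summed to 20840 against 4029 and 8912. The 4 measured adipocyte markers of 6 summed to 12050 against 25870 and 20360 CPM in IgG, and to 1952 against 13280 and 11460 in Kif5A. In the inputs of sciatic nerve they summed to 1111 to 4097 CPM, so that all 3 IgG libraries lay above every input. The 3 measured oligodendrocyte and astrocyte markers summed to 1598 to 2713 CPM in the precipitates of dorsal root, all above its inputs at 647 to 1079 CPM. The 4 skeletal muscle markers were lower in precipitates, at 30.4 to 57.5 CPM in dorsal root against 72.8 to 116 CPM in its inputs. In sciatic nerve they summed to 331 to 588 CPM against 722 to 917 CPM. The 5 erythroid markers summed there to 258 to 674 CPM against 1605 to 1624 CPM, and overlapped in dorsal root. Markers of these other cells thus differed between precipitate and input in either direction, and the ribosomal proteins differed as well. Replicate 3 of the sciatic nerve input stood apart as well, with fibroblast markers at 6863 CPM against 18980 and 21090, and adipocyte markers at 1111 against 3788 and 4097. The part of these differences in the results below was not tested.

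Ribosomal protein mRNAs made up a smaller share of the precipitates than of the inputs. Summed over the 85 genes and scaled by library size alone, they reached 23546, 23168 and 25492 CPM in the 3 inputs of dorsal root. In the Kif5A precipitates of dorsal root they summed to 8639, 10236 and 20133 CPM, and in the IgG precipitates to 6631, 9661 and 18802 CPM. All 6 precipitates of dorsal root lay below all 3 inputs, and replicate 3 stood well above replicates 1 and 2 for both antibodies. The inputs of sciatic nerve summed to 33778, 32360 and 29181 CPM. The Kif5A precipitates there summed to 10163, 18207 and 22616 CPM and the IgG precipitates to 13865, 13860 and 24434 CPM. Again no precipitate reached an input, and Kif5A and IgG overlapped. The group means were 24069 ± 1247 CPM (SD, n = 3) for input, 13002 ± 6226 for Kif5A and 11698 ± 6336 for IgG in dorsal root. In sciatic nerve they were 31773 ± 2354, 16995 ± 6314 and 17386 ± 6104. With 3 libraries against 3, no exact permutation test of such a sum can pass 0.05, so none is given.

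**Figure D1:**
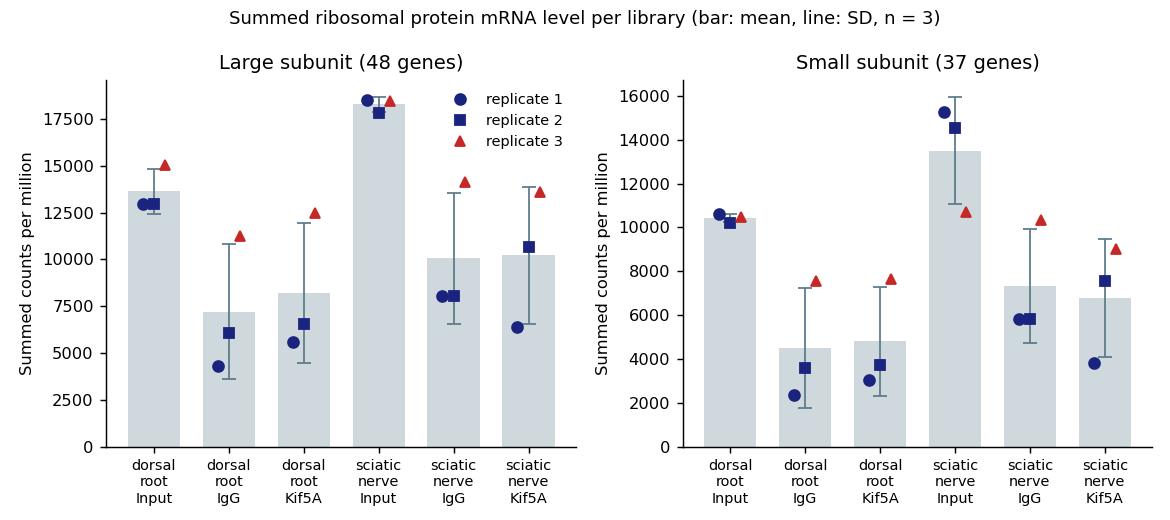
Summed ribosomal protein mRNA level of each library in CPM, for the large subunit (left) and the small subunit (right), with the 6 groups on the x axis; bars are means, lines are SD and points are libraries. The triangles of replicate 3 are the highest point of every precipitate group, and every precipitate lies below every input of its tissue, most narrowly in the small subunit of sciatic nerve, where replicate 3 of the input is at 10704 and replicate 3 of IgG at 10321.

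The subunits did not hold a fixed proportion. The small subunit sum was 0.768 ± 0.0630 (SD, n = 3) of the large subunit sum in inputs of dorsal root, 0.577 ± 0.0329 in Kif5A precipitates and 0.602 ± 0.0648 in IgG precipitates. The ratios were 0.819, 0.788 and 0.698 in the 3 inputs, and 0.549, 0.568 and 0.613 in the Kif5A libraries, so that these groups of dorsal root did not overlap. The IgG libraries, at 0.544, 0.591 and 0.672, lay below the inputs as well. The inputs of sciatic nerve ranged more widely, at 0.824, 0.814 and 0.579, the last being replicate 3, and overlapped both precipitates (0.596 to 0.709 for Kif5A, 0.720 to 0.731 for IgG).

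Levels per length, in TPM (a gene's share of all transcripts), spread widely among members. For these levels each transcript's counts were divided by its own length, made a share of the library and summed per gene. Among the highest over all libraries were Rpl32, a large subunit protein, with a mean of 2787, and Rplp1, an acidic protein of the ribosomal stalk that recruits elongation factors, with 2664. The lowest were Rps3a3 with 4.44, Rps10 with 10.1 and Rpl37rt with 11.2. Of these, Rps3a3 and Rpl37rt had 0% of their counts on transcripts annotated as coding, as had Rps3a2 and Rps4l. The order differed between tissues and precipitates: Rplp1 ranked 1 in input of sciatic nerve and 5 in input of dorsal root, while Rpl4, a structural protein of the large subunit, ranked 10 in input of dorsal root and 1 in its Kif5A precipitate. The 10 genes with most counts held 49.3% of the 6121957 counts on members, and the 42 with fewest held 5.94%. The 31 genes with 1 listed transcript had a median level of 860 and held 76.1% of the counts. The 54 genes with several listed transcripts had a median of 75.2. Of the 80 members with an annotated coding transcript, 79 shared at least one 50-base word with the transcript of another gene, and in 48 at least 50% of the words were shared, up to 98.6% in Rps27. The sources used here do not say how the counting treated such reads, so levels of single members, and those of low near copies such as Rps3a2, Rps3a3, Rpl37rt and Rps27rt, are uncertain to that extent.

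The Kif5A and IgG precipitates of dorsal root held ribosomal protein mRNAs at levels that the test did not tell apart. The median log2 ratio of Kif5A to IgG was 0.01 over the 85 genes, against -0.01 over the 12551 genes tested, and 43 of the 85 lay above 0. The large subunit had a median of 0.05 and the small subunit of -0.03. By edgeR's quasi-likelihood test with Benjamini-Hochberg adjustment, 0 members passed an adjusted p of 0.05, and 0% of all genes did. Before adjustment, p was under 0.05 for 0 members and for 5.98% of all genes, and DESeq2 called 0 members and 1.2% of all genes. The lowest p was that of Rpl22, an RNA-binding protein of the large subunit. Its scaled levels were 167, 153 and 219 CPM in Kif5A and 134, 67.9 and 149 CPM in IgG, so the 2 groups did not overlap but lay close. The log2 ratio was 0.67 with SE 0.35 and an adjusted p of 0.918, with a 95% interval from -0.08 to 1.43. Rpl4 showed the narrowest interval. Its levels were 1206, 1265 and 1543 CPM in Kif5A and 831, 1392 and 1831 in IgG. The groups overlapped, and the log2 ratio was 0.04 with an interval from -0.60 to 0.67.

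Other members were less closely measured. The stalk gene Rplp1 had 156, 197 and 861 CPM in Kif5A and 104, 139 and 581 CPM in IgG. Replicate 3 was far above the other libraries in both groups, and the interval of the log2 ratio, 0.61, ran from -1.14 to 2.36. Rplp0, the scaffold of the stalk, had a log2 ratio of 0.42 ± 0.52 (SE) and Rpl3, a protein near the catalytic centre, 0.14 ± 0.51. Among the lowest of the members with at least 10 CPM stood Rpl10a, a protein of the L1 stalk where spent tRNA leaves, at -1.07 ± 0.77 and Rps27a, which is made as a fusion with ubiquitin, at -0.87 ± 0.57. Rps6, the classic target of S6 kinase, had 25.7, 26.4 and 38.0 CPM in Kif5A and 41.6, 40.1 and 48.3 in IgG. The groups did not overlap, and the log2 ratio of -0.48 had an interval from -1.34 to 0.39. Single libraries turned the sign of the median: it was -0.59 without replicate 3 of Kif5A and 0.57 without replicate 3 of IgG.

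The median log2 ratio of Kif5A to IgG in sciatic nerve was -0.19, against -0.02 over all genes, and 27 of 85 members lay above 0. The large subunit had a median of -0.13 and the small subunit of -0.22. By edgeR, 0 members and 0.0478% of all genes were called. Before adjustment, p was under 0.05 for 1 member and for 8.45% of all genes, and DESeq2 called 1 member and 3.23% of all genes. Both were Rpl12, part of the stalk base. Its levels were 21.7, 25.1 and 22.8 CPM in Kif5A and 41.0, 66.7 and 56.0 CPM in IgG. The groups did not overlap, the log2 ratio was -1.19 with SE 0.42, and the adjusted p was 0.358 by edgeR and 0.0296 by DESeq2. Next came Rpl35a at -1.04 ± 0.57 (SE), Rps21 at -0.90 ± 0.75 and Rpl10a at -0.89 ± 0.77. The highest were Rpl9 at 0.58 ± 0.68, Rps2 at 0.57 ± 0.75, Rpl22 at 0.55 ± 0.35 and Rpl13 at 0.50 ± 0.45. Rpl22 levels were 217, 170 and 228 CPM in Kif5A and 108, 131 and 193 in IgG, which overlapped. Rpl4 again gave the narrowest interval, from -0.57 to 0.70 around a log2 ratio of 0.06. The median was -0.48 without replicate 3 of Kif5A and 0.09 without replicate 3 of IgG.

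The test of the difference between the tissues called 0 members and 0.0159% of all genes with edgeR. An unadjusted p under 0.05 was found for 0 members and 6.37% of all genes, and DESeq2 called 0 members and 1.49% of all genes. The median difference was -0.14 over members and 0.01 over all genes. Rps19 stood lowest at -1.20, with an interval from -3.21 to 0.82, and Rpl10, a protein added late in assembly, highest of the members with at least 10 CPM at 0.70, with an interval from -1.10 to 2.50. The standard error of a member had a median of 0.83.

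**Figure D2:**
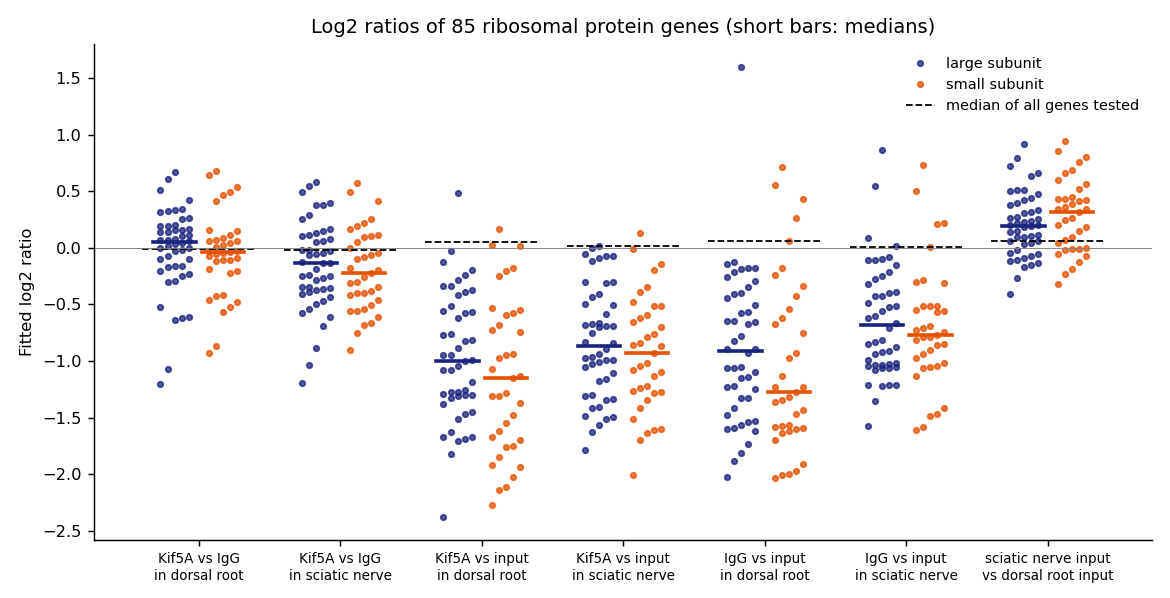
Fitted log2 ratios (y axis) of the 85 genes in 7 comparisons (x axis), large subunit in blue and small subunit in orange; each point is a gene, short bars are medians of the subunit and dashed lines the median of all genes tested. Points of the 2 comparisons of Kif5A with IgG lie around 0, those of precipitate with input mostly below it, and those of the inputs mostly above it.

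Against input, most ribosomal protein mRNAs had lower fitted levels in the Kif5A precipitates, but by less than the spread between replicates allowed to be called. In dorsal root the median log2 ratio was -1.07 over members and 0.06 over the 12681 genes tested, and 81 of 85 members lay below 0. With scaling by library size alone the medians were -0.75 over members and 0.39 over all genes, and 73 of 85 lay below 0. The edgeR test called 0 members and 0% of all genes, with a lowest adjusted p of 0.303 among members. Unadjusted p was under 0.05 and the ratio lower for 43 members, 21 of the large and 22 of the small subunit, and for 5.11% of all genes. All 3 Kif5A libraries lay below all 3 inputs for 48 members and for 15.6% of all genes. DESeq2 called 10 members and 1.05% of all genes lower. Without replicate 3 of every group edgeR called 39 members and 2.67% of all genes lower.

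The lowest ratio was that of Rpl39, a very small protein at the exit tunnel. Its levels were 410, 340 and 350 CPM in input of dorsal root and 29.0, 46.2 and 136 CPM in the Kif5A precipitates. Every precipitate lay far below every input, with replicate 3 nearest, and the log2 ratio was -2.38 with SE 0.69 (edgeR adjusted p 0.331). Rps12, a small subunit protein, had 918, 840 and 603 CPM in input and 85.6, 114 and 291 in Kif5A, a log2 ratio of -2.27 with SE 0.66. Rps29, a zinc-binding protein of the small subunit head, had 622, 465 and 481 CPM against 47.1, 64.8 and 245, and Rps26, which sits at the mRNA exit channel, 538, 512 and 461 against 65.6, 80.9 and 204. Their log2 ratios were -2.14 ± 0.79 (SE) and -2.11 ± 0.65. Rps24 followed at -1.93 ± 0.53 and Rpl41, the smallest protein of the ribosome, at -1.71 ± 0.50. The stalk proteins Rplp1 and Rplp2 stood at -1.33 ± 0.69 and -1.27 ± 0.48, and Rpl11, which with Rpl5 forms the 5S RNA particle, at -1.27 ± 0.39. Rpl23a, near the tunnel exit, stood at -1.45 ± 0.38, and Rps4x at -1.13 ± 0.42.

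Other members lay near their input level. Rpl4, shown for its length as the longest coding sequence of the family and chosen after its values were seen, had 1435, 1742 and 1420 CPM in input of dorsal root and 1206, 1265 and 1543 CPM in Kif5A. The groups overlapped and the log2 ratio was -0.20, with an interval from -0.76 to 0.36. Rpl22 had 158, 178 and 215 CPM in input against 167, 153 and 219, a log2 ratio of -0.03 with an interval from -0.73 to 0.67. Rpl5, the partner of Rpl11, was at -0.13 ± 0.31, Rpl3 at -0.41 ± 0.46, Rps6 at 0.02 ± 0.35 and Rps3, a protein of the mRNA entry channel, at -0.25 ± 0.45. Rplp0 at -0.77 ± 0.47, Rpsa, also known as a laminin receptor, at -0.72 ± 0.49, and Fau at -0.53 ± 0.64 lay between. So Rpl5 and Rpl11, whose proteins enter the ribosome together, differed in fitted ratio, as did the stalk scaffold Rplp0 and the stalk tips Rplp1 and Rplp2; these differences between genes were not tested.

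Kif5A against input of sciatic nerve gave a median log2 ratio of -0.89 over members and 0.02 over all genes, and 83 of 85 members lay below 0. With scaling by library size alone the medians were -0.75 and 0.20, and 75 of 85 lay below 0. The edgeR test called 0 members and 0.00789% of all genes. Unadjusted p was under 0.05 and the ratio lower for 27 members and 3.52% of all genes. The libraries did not overlap, with Kif5A lower, for 55 members and 9.23% of all genes, and DESeq2 called 0 members and 0.213% of all genes lower. Without replicate 3 of every group edgeR called 3 members, Rps20 among them, and 0.49% of all genes lower. Rps12 was lowest, with 1451, 1492 and 773 CPM in input and 92.6, 384 and 448 in Kif5A. Replicate 3 of the input and replicate 1 of Kif5A set its spread, and the log2 ratio was -2.01 with SE 0.65 and adjusted p 0.59. Rpl39 stood at -1.79 ± 0.68, Rps21 at -1.70 ± 0.60, Rps26 at -1.63 ± 0.64 and Rpl41 at -1.62 ± 0.50. Rpl4, Rpl22 and Rpl5 were again near 0, at -0.09 ± 0.27, -0.00 ± 0.33 and 0.02 ± 0.31. Rps19, a gene of Diamond-Blackfan anaemia, was the highest at 0.13 ± 0.56.

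In the authors' deposited table, which tests single transcripts, 37 of 238 member transcripts of dorsal root, from 36 genes, were lower in Kif5A than in input at a false discovery rate under 0.05, and 0 were higher. Over all transcripts that table called 2.16% lower and 0.731% higher. In the same authors' deposited table for sciatic nerve 18 of 241 were lower and 0 higher, beside 0.644% and 0.55% of all transcripts. The lowest false discovery rate of dorsal root in the authors' deposited table was that of Rpl39, with a log2 fold change of -2.86 and a value of 5.734e-07. Against IgG the authors' deposited table called 0 member transcripts in dorsal root, where it called 6.59% of all transcripts in either direction. In sciatic nerve the authors' deposited table called 5.98% of all transcripts higher and 3 of members, of Rpl27a, Rpl23a and Rpl10a, with 81, 147 and 70 counts over 9 libraries. The transcript tests of the authors' deposited table and the gene tests above thus differ in what they call against input.

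The IgG precipitates, which share their inputs with the Kif5A comparison, lay below input too. In dorsal root the median log2 ratio of IgG to input was -1.06, against 0.06 over all genes, and 79 of 85 members were below 0. By edgeR 0 members and 1.23% of all genes were called, the lowest adjusted p of a member being 0.0681. Unadjusted p was under 0.05 and the ratio lower for 45 members and 10.3% of all genes, and groups did not overlap, IgG lower, for 48 members and 18.1% of all genes. DESeq2 called 25 members and 6.08% of all genes lower. Without replicate 3 of IgG edgeR called 39 members and 6.34% of all genes lower, and without replicate 3 of every group 47 members and 7.73%. With the replicate number as a block it called 31 members and 3.2% of all genes lower, so the call depends on the block, although the labels do not say that a number marks 1 pool of animals and equal numbers did not all deviate together here. For sciatic nerve the median was -0.74, against 0.01, with 76 of 85 below 0. There edgeR called 0 members and 3.74% of all genes. Unadjusted p was under 0.05 and the ratio lower for 19 members and 10.4% of all genes, groups did not overlap for 46 members and 14.2% of all genes, and DESeq2 called 5 members, among them Rps20, Rps28 and Rpsa, and 6.32% of all genes lower. Without replicate 3 of every group edgeR called 19 members and 5.42% of all genes lower, and 1 member and 4.25% higher. With the replicate number as a block it called 10 members and 3.08% of all genes lower.

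Among single members in dorsal root, Rps28 had 108, 118 and 117 CPM in input and 11.8, 20.0 and 52.1 CPM in IgG, with no overlap, and a log2 ratio of -2.03 with SE 0.57 (adjusted p 0.0718). Rpl39 stood at -2.03 ± 0.68, Rps26 at -2.01 ± 0.64 and Rps12 at -1.99 ± 0.65. In sciatic nerve Rps28 at -1.60 ± 0.56, Rps12 at -1.58 ± 0.64 and Rps20 at -1.49 ± 0.44 were among the lowest. Rps20, a small subunit protein, had 619, 540 and 403 CPM in input and 132, 160 and 266 in IgG, and the groups did not overlap. Rpl39 was at -1.06 ± 0.66 there. Rpl22 stood at -0.65 ± 0.33 in dorsal root and -0.51 ± 0.33 in sciatic nerve, and Rpl4 at -0.18 ± 0.27 and -0.11 ± 0.27.

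The ratio of precipitate to input rose with the length of the coding sequence, least in IgG of sciatic nerve. Across the 80 members with an annotated coding transcript, Pearson's r between log2 coding length and the log2 ratio of Kif5A to input was 0.67 in dorsal root and 0.61 in sciatic nerve, and Spearman's rho 0.66 and 0.61. For IgG to input r was 0.56 in dorsal root and 0.22 in sciatic nerve, with rho of 0.63 and 0.21. The ratio also fell with the mean level of the 85 members in log2 CPM. There r was -0.30 in dorsal root and -0.33 in sciatic nerve for Kif5A, and -0.46 and -0.42 for IgG. These describe genes of the same libraries, which share their inputs, and genes are not independent replicates. The 20 members with the shortest coding sequences, 141 to 354 bases, had a median log2 ratio of Kif5A to input of -1.64 in dorsal root, and 0 of 20 lay above 0. The 20 longest, 615 to 1260 bases, had a median of -0.54, with 3 of 20 above 0. For sciatic nerve the medians were -1.32 and -0.47. For IgG they were -1.59 and -0.52 in dorsal root and -0.86 and -0.54 in sciatic nerve. These subsets were chosen after the values were seen. The coding sequences of Rpl39 and Rps28 printed above are in the short set.

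Other genes of the tables showed the same order by transcript length. Among genes that are no members, the 693 with a mean transcript length under 600 bases had a median log2 ratio of Kif5A to input of -1.10 in dorsal root, the 980 of 600 to 1000 bases -0.52, the 2886 of 1000 to 2000 bases 0.06 and the 4666 of 2000 to 4000 bases 0.18. The 24 members under 600 bases stood at -1.56, the 33 of 600 to 1000 bases at -0.94 and the 24 of 1000 to 2000 bases at -0.79. Members thus had the lower median in each class. In sciatic nerve members stood at -1.27, -0.84 and -0.68 and the other genes at -0.78, -0.30 and 0.07. Whether length in the library or another property of short mRNAs sets this order was not tested. Between Kif5A and IgG, coding length showed almost no relation in dorsal root (r = 0.05) and some in sciatic nerve (r = 0.50), where the 20 shortest had a median of -0.38 and the 20 longest of 0.16. Other genes under 600 bases had a median of -0.34 in that comparison.

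**Figure D3:**
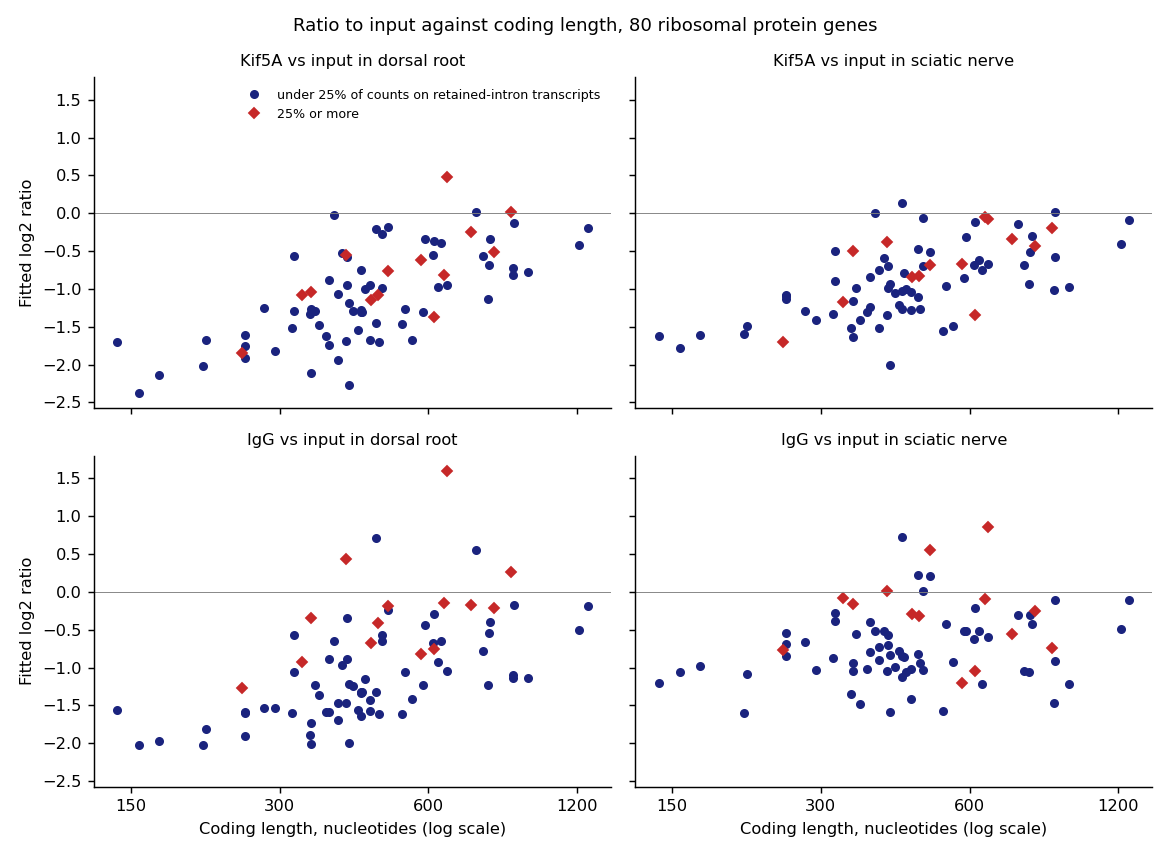
Fitted log2 ratio to input (y axis) against coding length in bases (x axis, log scale) for 80 ribosomal protein genes in 4 comparisons; blue circles are genes with under 25% of their counts on retained-intron transcripts and red diamonds those with 25% or more. Ratios are higher at greater length in the 2 Kif5A panels (r = 0.67 and 0.61), and Rpl10a is the highest diamond of both IgG panels.

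Transcripts annotated with a retained intron formed a larger share of the ribosomal protein counts in precipitates, most of all in IgG of dorsal root. There they held 5.49%, 4.07% and 1.08% of the member counts in the 3 libraries. Inputs of dorsal root held 0.955%, 0.928% and 0.836%, and Kif5A precipitates 1.91%, 1.86% and 1.04%. Shares in sciatic nerve were 2.07%, 2.35% and 1.44% in IgG, 1.53%, 1.30% and 0.944% in Kif5A and 0.908%, 0.840% and 0.857% in input. Every precipitate lay above every input of its tissue in this share, and replicate 3 was lowest in all 4 precipitate groups. In level, scaled by library size alone, Kif5A lay below every input. In dorsal root it had 164.8, 190.5 and 208.9 CPM against 213.2 to 224.8, and in sciatic nerve 155.1, 236.7 and 213.6 against 250.0 to 306.7. IgG had 364.1, 392.8 and 202.3 CPM in dorsal root and 287.5, 325.6 and 351.8 in sciatic nerve, overlapping the inputs. Among all other genes the share was 1.92%, 1.40% and 0.741% in IgG of dorsal root. In its input it was 0.860%, 0.691% and 0.570%, so these groups overlapped. In sciatic nerve the other genes overlapped as well, at 0.882%, 1.25% and 1.05% in IgG and 0.818%, 0.938% and 0.490% in input.

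**Figure D4:**
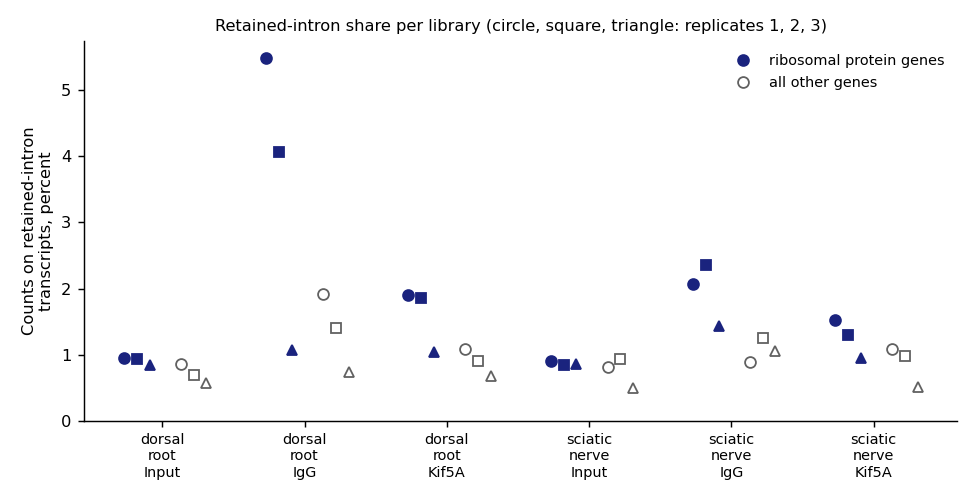
Share of counts on retained-intron transcripts in percent (y axis) for each library of the 6 groups (x axis); filled symbols are ribosomal protein genes, open symbols all other genes, and circle, square and triangle are replicates 1, 2 and 3. The first pair of IgG libraries of dorsal root stand highest, at 5.49% and 4.07%.

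Of the 85 genes, 32 had counts on both retained-intron and coding transcripts. In IgG against input of dorsal root their retained-intron transcripts had a median log2 ratio of group means of 0.29 (0.1 CPM added) and their coding transcripts of -1.28, and the first was the higher in 28 of 32. In Kif5A against input the medians were -0.50 and -1.02. Against IgG, coding transcripts of these genes stood at 0.22 and retained-intron transcripts at -0.84 in the Kif5A precipitates of dorsal root, and at 0.05 and -0.53 in sciatic nerve. Rpl10a shows the split. Its summed level was 13.5, 11.7 and 11.5 CPM in input of dorsal root, 41.95, 59.4 and 10.0 in IgG and 19.0, 18.2 and 14.0 in Kif5A. Its retained-intron transcripts alone had 37.2, 52.9 and 7.40 CPM in IgG against 9.44, 6.84 and 6.17 in input, and its coding transcript 3.74, 3.15 and 2.35 against 3.07, 3.45 and 4.97. The high values thus came from replicates 1 and 2 of IgG and from transcripts with a retained intron. The gene's log2 ratio of IgG to input was 1.60 with SE 0.68 (adjusted p 0.204), and -0.33 when only transcripts annotated as coding were summed. The 14 members with at least 25% of counts on such transcripts had a median log2 ratio of IgG to input of -0.28 in dorsal root, against -1.23 in the other 71. In Rpl12 the coding transcripts had 26.4, 29.8 and 25.2 CPM in input of dorsal root, 7.75, 9.44 and 13.6 in IgG and 10.5, 10.2 and 19.0 in Kif5A, both precipitates below input and overlapping each other. In sciatic nerve, where Rpl12 had its low ratio of Kif5A to IgG, the coding transcripts overlapped, at 13.6, 12.1 and 14.5 CPM in Kif5A and 14.8, 13.8 and 17.9 in IgG. Its retained-intron transcripts had 6.68, 11.8 and 5.61 CPM in Kif5A and 24.4, 52.3 and 37.6 in IgG, with no overlap, so the difference of the gene lay in those transcripts.

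Most members had higher fitted levels in inputs of sciatic nerve than of dorsal root. The median log2 ratio was 0.22 over members and 0.06 over the 12215 genes tested, and 63 of 85 lay above 0. The edgeR test called 0 members and 4.12% of all genes. Unadjusted p was under 0.05 and the ratio higher for 9 members and 7.62% of all genes, the libraries did not overlap, sciatic nerve higher, for 17 members and 9.97% of all genes, and DESeq2 called 6 members and 4.71% of all genes higher. With 9 of 85, the count by unadjusted p lies near its background. Here replicates with equal numbers deviated together, and with the replicate number as a block edgeR called 2 members higher, Rplp1 (adjusted p 0.0403) and Rpsa (adjusted p 0.0461), beside 3.05% of all genes. Without replicate 3 of the sciatic nerve input 11 members and 10.7% of all genes were called higher. Without replicate 3 of every group 17 members and 13.8% of all genes were called higher and 2 members and 15% of all genes lower. The counts of members called higher under the block and without the sciatic nerve library thus lie near their backgrounds.

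Rplp1 showed the smallest adjusted p. Its levels were 926, 924 and 1193 CPM in input of dorsal root and 1707, 1729 and 2237 CPM in input of sciatic nerve. Replicate 3 was the highest of both groups, which did not overlap, and the level was 1.89-fold higher (log2 ratio 0.92, SE 0.23, adjusted p 0.0674). Its partner Rplp2 had 155, 130 and 146 CPM against 168, 143 and 214, which overlapped, with a log2 ratio of 0.31 and an interval from -0.24 to 0.86. Rplp0 stood at 0.51 ± 0.29. Rpsa had 796, 896 and 1525 CPM against 2078, 1803 and 2235, with no overlap, and a log2 ratio of 0.94 ± 0.28 (adjusted p 0.129). Rps4x, the X-linked form of Rps4, had 519, 591 and 683 CPM against 1010, 958 and 885 and a log2 ratio of 0.69 ± 0.21. Rps19 had 33.7, 36.3 and 33.8 CPM against 64.1, 55.6 and 65.7, a log2 ratio of 0.85 ± 0.23. The lowest were Rpl30 at -0.41 ± 0.28, Rps18 at -0.32 ± 0.24, Rpl24 at -0.26 ± 0.30 and Rps15a at -0.23 ± 0.23. Fibroblast markers summed to 6863 to 21090 CPM in the sciatic nerve inputs and to 4134 to 5144 CPM in the dorsal root inputs, and their part in these differences was not tested.

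**Figure D5:**
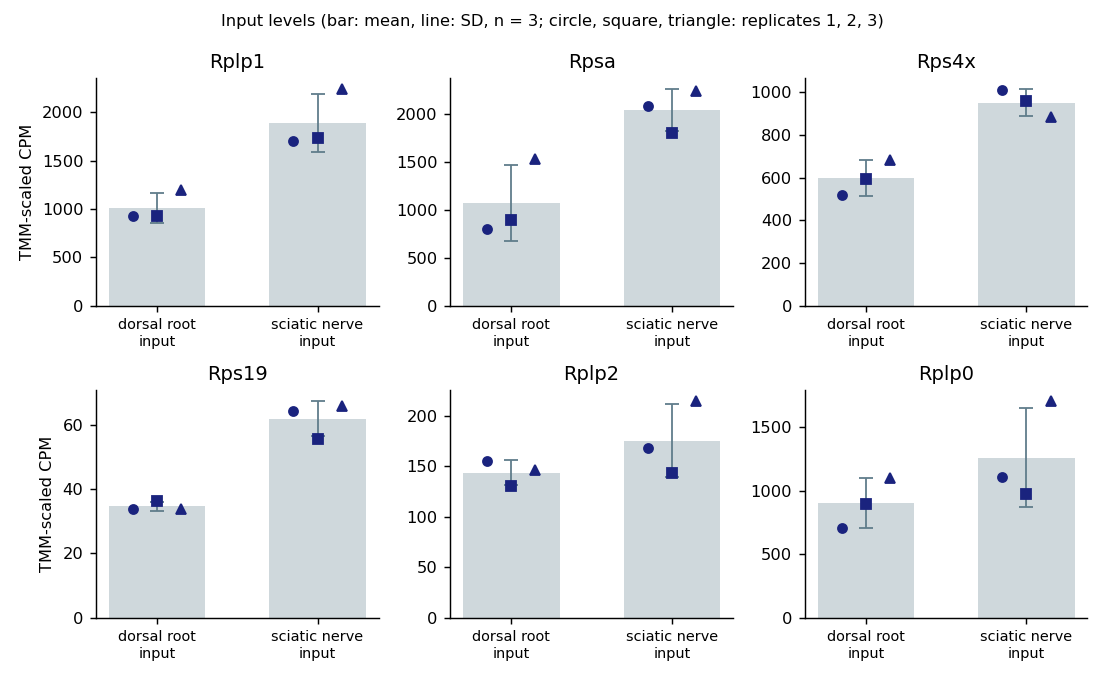
Scaled level (y axis, CPM with TMM factors) in the 3 inputs of each tissue for 6 genes; bars are means, lines SD and symbols the libraries of replicates 1, 2 and 3. The libraries of the tissues do not overlap for Rplp1, Rpsa, Rps4x and Rps19, and they overlap for Rplp2 and Rplp0.

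Other mRNAs of the translation machinery were read beside the ribosomal proteins. A list of 20 names gave Rack1 and Gnb2l1 for the same gene. The 19 translation factors and ribosome partners it covered, many with a TOP tract, were all measured. Against input of dorsal root their median log2 ratio was -0.47 in Kif5A and -0.12 in IgG, beside -1.07 and -1.06 for the ribosomal proteins. In sciatic nerve it was -0.09 and -0.38. None of the 19 was called in Kif5A against input or IgG, where at most 0.0478% of all genes were called. In IgG against input of sciatic nerve 2 were called lower, beside 2.37% of all genes. Tpt1, a small growth-related protein with a TOP mRNA, was lower in IgG than in input of sciatic nerve at -1.44 ± 0.36 (SE; edgeR adjusted p 0.0393), and stood at -1.24 ± 0.36 in Kif5A against input of dorsal root (adjusted p 0.325). Eef1a1, the elongation factor that brings tRNA, stood at -0.50 ± 0.27 and Eef2, the translocation factor, at 0.27 ± 0.33 in that comparison. Eef1d was the other gene called lower in IgG of sciatic nerve, where it had a count of 0 in every library. It had 303 counts in all libraries. Of 34 ribosome assembly factors 30 were tested against input, with a median of 0.24 for Kif5A and 0.72 for IgG in dorsal root. Nop14, needed for the small subunit, was higher in IgG than in input in both tissues, at 1.85 ± 0.35 (adjusted p 0.0277) and 1.28 ± 0.34 (adjusted p 0.0482). The 80 genes of the mitochondrial ribosome had a median of -0.32 for Kif5A and -0.59 for IgG against input in dorsal root. Of the 80, 0 and 2 were called lower, beside 0% and 0.67% of all genes. Of the relatives left out by the rule, Rpl22l1 stood at -1.76 ± 0.44 in Kif5A against input of dorsal root, where Rpl22 stood at -0.03 ± 0.33.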

How the data were processed

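RNA of 18 axoplasm libraries was made with SMART-Seq v4, per the labels' protocols, in which cDNA is amplified before sequencing, so a count is not a molecule. The deposited tables, 1 per tissue, hold raw read counts per Ensembl transcript. They also hold log2 fold changes and false discovery rates (adjusted p-values) of the authors, per the file headers. CASAVA 1.8.2, edgeR and the build mm10 (GRCm38) are named in the submitters' processing notes. The sources used here name no aligner, counter, strand setting or annotation release, so antisense and overlapping genes cannot be told apart. Rows with no gene name, 0.138% to 0.237% of counts, were left out.

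Counts were summed per gene over the 16878 named transcripts in both tables, and library size was the total of named rows. The edgeR 4.0.16 quasi-likelihood test (R 4.3.3, robust, TMM scaling, default filter on low counts, two-sided, Benjamini-Hochberg over all genes, threshold 0.05) was fitted over 12 precipitates, all 18 libraries or the 6 inputs. SE and 95% intervals come from that test. Levels in CPM carry TMM factors unless said otherwise. Fits were also run on simulated counts with known changes. Those counts lacked the shared differences of replicate 3, so they do not bear on the results here. DESeq2 1.42.0, limma-voom 3.58.1, other scalings, no filter, left-out libraries, the replicate block and coding transcripts only were alternatives. Lengths, transcript classes and shared 50-base words come from GENCODE M21, which held 16764 of the transcripts and 84 of the genes.

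Replicates are independent repeats of 5 pooled animals per the labels. The labels do not say that equal numbers share animals. Correlations of deviations from group means were taken over 8990 genes with at least 5 CPM. They were 0.293, 0.216 and 0.454 between the inputs of the tissues. Between Kif5A and input of sciatic nerve they were 0.138, 0.357 and 0.378, so equal numbers deviated together in both comparisons. Between Kif5A and IgG they were 0.131, 0.081 and 0.31 in dorsal root and 0.108, 0.058 and 0.204 in sciatic nerve. Between Kif5A and input of dorsal root they were 0.226, 0.07 and 0.175. These were positive in every pair but weakest in replicate 2. The main tests still used no pairs, and the replicate number as a block was an alternative only. Named genes were 19 set by role, and in each comparison any member called and the 4 highest and 4 lowest ratios among members reaching a mean of 10 CPM. Rpl4, Rpl32, Rps29, Rps28, Rpl18 and the low near copies were named beyond this after their values were seen, and some members that the rule names are not reported here. Members and lists were chosen with earlier results of these data known.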

Additional observations from a re-analysis of the deposited data

How the results depend on the processing

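Medians of the 85 genes kept their sign under every other scaling, filter, block and transcript sum tried for the 4 comparisons with input and for the inputs. Leaving libraries out, they ranged from -1.58 to -0.81 for Kif5A against input of dorsal root, from -1.26 to -0.64 for that of sciatic nerve, from -1.68 to -0.79 for IgG against input of dorsal root, from -0.98 to -0.59 for that of sciatic nerve (-0.66 without replicate 1 of IgG) and from 0.15 to 0.25 for the inputs. They changed sign between Kif5A and IgG, from -0.59 to 0.57 in dorsal root, from -0.48 to 0.09 in sciatic nerve and from -0.68 to 0.43 for the difference. With coding transcripts only, an alternative added after seeing the data, the IgG median of sciatic nerve moved to -0.94. Counts of members called, 0 in every reported test, were less stable. DESeq2 called 1 for Kif5A against IgG of sciatic nerve (3.23% of all genes in either direction). It called 10 lower for Kif5A against input of dorsal root (1.05% of all genes). For IgG against input of dorsal root and sciatic nerve it called 25 and 5 lower (6.08% and 6.32%), and for the inputs 6 higher (4.71%). The counts of 1, 5 and 6 lie near or below these shares. limma-voom called 6 and 2 lower for IgG against input (1.87% and 3.35% of all genes). Fitting only the groups compared, edgeR called 12 lower for Kif5A against input of dorsal root (1.79% of all genes). With libraries left out, counts ranged from 0 to 39 and 0 to 3 for Kif5A against input. They ranged from 0 to 47 and 0 to 20 for IgG against input, and from 0 to 19 for the inputs. Without replicate 3 of the sciatic nerve input 11 were called higher for the inputs, beside 10.7% of all genes. All highest counts were without replicate 3 of every group, where 3.59% and 0.917% of all genes were called in either direction for Kif5A against input, 12.8% and 9.67% for IgG against input and 28.7% for the inputs. With coding transcripts only 2 were called higher for the inputs (2.79% of all genes). With the replicate number as a block, 31 and 10 members were called lower for IgG against input of dorsal root and sciatic nerve (3.2% and 3.08% of all genes), where the pairing check failed, and 2 higher for the inputs (3.05%); the block changed no other count of members called. Summed levels with TMM factors moved to 26731 CPM for the dorsal root input and 34335 CPM for the sciatic nerve input. The cause of these changes was not tested.

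Single genes reversed where transcripts not annotated as coding left the sum, which in Rps27a held no retained intron. With coding transcripts only, Kif5A against IgG of dorsal root became 0.11 for Rpl10, 0.0945 for Rpl10a, 0.37 for Rpl12 and 0.41 for Rps27a, and that of sciatic nerve 0.63 for Rpl10a. IgG against input became -0.33 for Rpl10a and -0.88 for Rps27a in dorsal root, and -1.44 for Rpl10a and -0.55 for Rpl12 in sciatic nerve. Without replicate 1, Rpl10a in sciatic nerve became 0.14 (every group) or 0.41 (IgG) for Kif5A against IgG and -0.57 or -0.45 for IgG against input, within leave-out ranges reaching -1.28 and 1.27 without replicate 3 of IgG, and Rps4l became -0.13 for IgG against input without replicate 1 of every group.

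Pairs of libraries of a group differed with a mean chi-square per gene of 15.7 to 475, where counting noise alone gives 1, but the lowest count of a member in a library was 3, where counting error is large. The 3 libraries per group limit the precision.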
